A study of Homo sapiens with 7 samples.

Results

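The genes described here are 9 members of the fibroblast growth factor (FGF) system, the ligand genes FGF2, FGF4, FGF8, FGF13 and FGF17 and the receptor genes FGFR1, FGFR2, FGFR3 and FGFR4. They were chosen by gene name and not by a cutoff on their values, from the 22670 genes listed for every sample. Earlier results of these data were known when they were chosen. Each of the 9 names has 1 entry, and all 9 lie among the 20187 entries on chromosomes. RNA-seq was performed on SEES-3, an established human embryonic stem cell (hESC) line, that constitutively expressed the reverse tetracycline transactivator and carried 1 of 2 doxycycline (Dox)-inducible transgenes in a piggyBac construct. The JMJD3c-hESCs carried JMJD3c, a part of the H3K27me3 demethylase JMJD3 that holds its catalytic JmjC domain, with an HA tag and a nuclear localization signal, and were sampled without Dox (Day 0) and after 1, 2, 3 and 4 days of Dox at 1 µg/ml. The mutant line carried the same construct with a point mutation in the catalytic domain and was sampled untreated and at Day 4 of Dox. Both lines came from stable clones selected with puromycin, how many of which entered a library is not given in the sources used here, and both were kept throughout in feeder-free conditions in StemFit AK-03, a medium for undifferentiated culture. Each of the 7 conditions was represented by 1 library. There was no replicate, and the effect of the mutation cannot be told apart from other differences between the 2 lines.

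FGF ligands bind receptor tyrosine kinases of the FGFR family together with heparan sulfate, and the activated receptors signal through the adaptor FRS2, RAS and the MAP kinase ERK. The pathway keeps human pluripotent cells undifferentiated in culture, and in the embryo it acts in the primitive streak, where mesoderm and endoderm form. FGF13 is an exception among the ligands, because it belongs to the intracellular FGF homologous factors, which are not secreted and are best known for binding sodium channels.

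The values are FPKM, read numbers scaled to transcript length and sequencing depth, as calculated by the authors with Cufflinks, so levels can be compared between genes of different length. The 95% interval given with each value describes the estimate in 1 library and not the spread between cultures. To be called upregulated, a gene needed over 4 FPKM in the treated sample and a ratio above 2. To be called downregulated, it needed over 4 FPKM in the untreated sample and a ratio below 0.5. These calls are descriptions of single libraries, and no p-value is given. Log2 fold changes were calculated after a pseudocount of 1 FPKM was added to both values, and so understate how much low genes differed.

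KDM6B, the gene that encodes JMJD3, had a level of 3.45 FPKM before Dox and of 158 to 282 FPKM on the 4 days with Dox in the JMJD3c-hESCs. The untreated mutant line had 2.40 FPKM and the Dox-treated one 454 FPKM. Reads of the transgene and of the native gene are not separated in this value. The deposited values hold no read counts. Steps of whole reads among low values gave estimates between 1780000 mapped reads at Day 0 and 3660000 in the untreated mutant line, so the reference of the time course was the shallowest library. All 9 pluripotency markers examined, POU5F1 and NANOG among them, were above 4 FPKM in every library. At Day 4 against Day 0, 5.87% of all genes above 4 FPKM in at least 1 of the 2 samples were upregulated and 7.56% downregulated. Of the 9 pluripotency markers, 3 were downregulated, but none was called at Day 4 against either library of the mutant line. Among 8 primitive streak and mesoderm markers, 6 were above 4 FPKM in either sample and 5 were upregulated. For 8 definitive endoderm markers, 6 were above it and all 6 were upregulated. For 8 neural markers, 3 were above it and 2 were upregulated, with overlapping intervals. For 6 fibroblast markers, 3 were above it and none was called. No trophoblast and amnion marker of 8 was above it, so none could be called, and 3 were higher and 3 lower. With Dox in the mutant line none of these markers was called, beside 1.25% upregulated and 1.53% downregulated among all genes. All 9 pluripotency markers were nevertheless lower there, with a median log2 fold change of -0.185, beside -0.61 at Day 4 against Day 0. No definitive endoderm or trophoblast and amnion marker was above 4 FPKM in the mutant line, so none of those could be called. In bulk samples such as these, more cells that express a gene and more RNA per cell cannot be told apart, and the part of a changed cell makeup in the values below was not tested.

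At Day 0 the receptor gene FGFR1 had the highest level of the 9, at 105 FPKM, and FGFR2 followed at 31.8 FPKM. Among the ligand genes FGF2 had the highest value, at 19.8 FPKM. The intervals of FGFR1, FGFR2 and FGF2 did not overlap one another at Day 0, but that of FGF2 overlapped those of FGFR4, FGF8 and FGF13. By the same rule FGFR4 at 14.4 FPKM, FGF8 at 13.8 FPKM, FGF13 at 9.70 FPKM and FGFR3 at 7.58 FPKM could not be ordered, since each interval overlapped that of the next gene. FGF4 at 1.66 FPKM and FGF17 at 0.373 FPKM were the lowest, and their intervals overlapped each other. At Day 4 FGFR1 was still first, at 107 FPKM, and FGF13 followed at 25.5 FPKM, with an interval that overlapped that of FGFR2 at 16.2 FPKM.

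At Day 4 of Dox, FGF13 and FGF17 were upregulated relative to Day 0 and FGF8 was downregulated. The background in this comparison was 5.87% upregulated and 7.56% downregulated among the 10247 genes above 4 FPKM in at least 1 of the 2 samples, a base that 8 of the 9 members reached. FGF4 did not reach it. The median log2 fold change was -0.56 over the 9 members and -0.06 over all genes in the base, with 4 members higher and 5 lower. Over the 8 members with a mean above 1 FPKM, which leaves out FGF4, the median was -0.35. FGF2, FGFR2, FGF13 and FGF17 had intervals that did not overlap between Day 0 and Day 4, which was 4 of the 8 members in the base beside 12.1% of all genes in it. Against the untreated mutant line, 2 members had intervals apart at Day 4, FGF2 and FGF17, the latter beside a reference at 0 FPKM. The 2 upregulated members, 1 downregulated member and 4 with intervals apart are too few to read as shares that differ from the background.

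**Figure D1:**
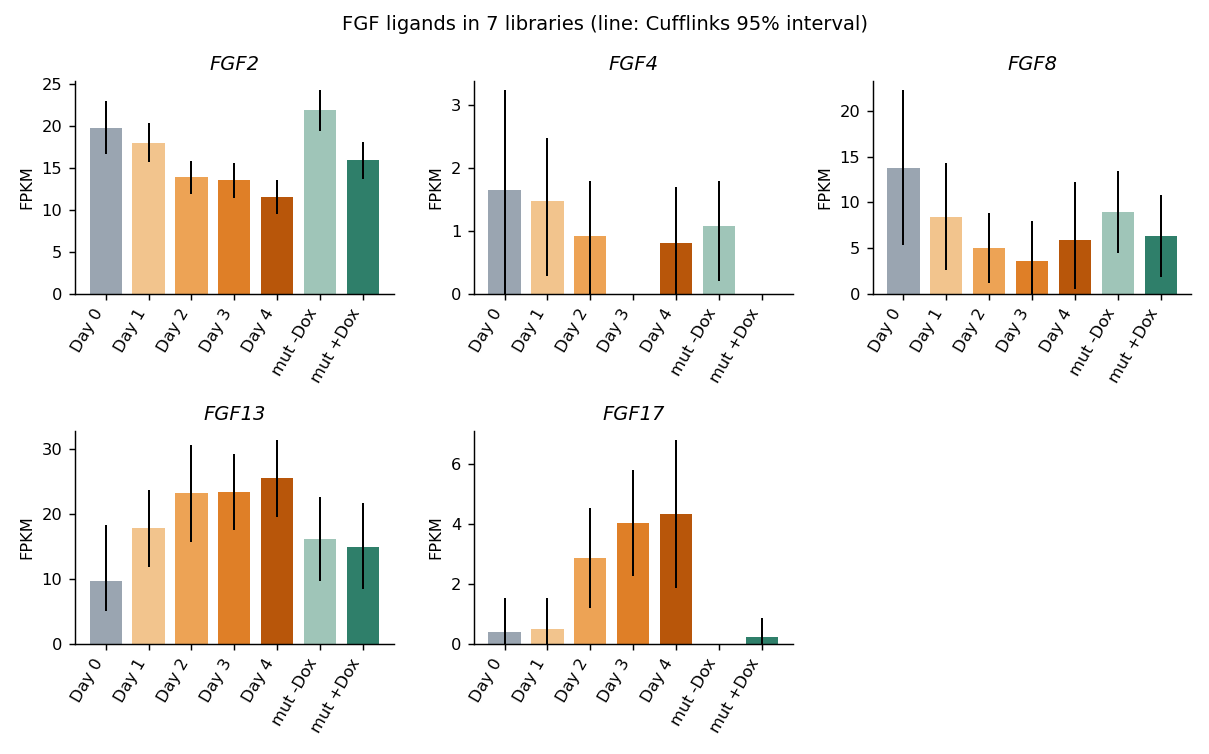
FPKM of the 5 FGF ligand genes (y axis, a separate linear scale for each gene) in the 7 libraries (x axis, Days 0 to 4 of Dox in the JMJD3c-hESCs, then the mutant line without and with Dox), with bars for the value and black lines for the Cufflinks 95% interval. FGF17 and FGF13 were highest at Days 3 and 4, FGF2 and FGF8 were highest in the libraries without Dox, and FGF4 stayed below 2 FPKM.

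FGF2 encodes basic FGF, the ligand most used to keep human pluripotent cells in culture. The gene lies on chromosome 4 (hg19, chr4:123747863-123819391). From Day 0 to Day 4 its levels were, in order, 19.8 (interval 16.8 to 22.9), 18.0, 13.9, 13.5 and 11.6 FPKM (9.69 to 13.5). The mutant line had 21.9 FPKM without Dox (19.6 to 24.2) and 15.9 FPKM with it (13.9 to 18.0). FGF2 was thus lower at each later day, and within both lines the library with 4 days of Dox was below the untreated one with intervals apart. At Day 4 the ratio to Day 0 was 0.585 (log2 fold change -0.73) and in the mutant line the ratio was 0.728 (-0.43), neither past 0.5. The 2 Day 4 libraries also had intervals apart, with a ratio of 0.728 of the JMJD3c-hESCs to the mutant line. FGF2 overlaps the gene NUDT6 on the other strand, and the library kit marks strand, but whether Cufflinks used it is not given in the sources used here. NUDT6 was measured at 1.28 to 8.14 FPKM, with 4.06 FPKM at Day 0 and 2.97 FPKM at Day 4.

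FGF8 encodes a secreted ligand that is expressed in the primitive streak and at several signaling centers of the embryo. It lies on chromosome 10 (chr10:103530081-103535827). Over the 5 days its levels were, in order, 13.8 (5.44 to 22.2), 8.45, 4.99 (1.25 to 8.74), 3.55 (0 to 7.82) and 5.84 FPKM (0.661 to 12.2). The untreated mutant line had 8.98 FPKM (4.64 to 13.4) and the Dox-treated one 6.31 FPKM (2.01 to 10.7). FGF8 was called downregulated at Days 2, 3 and 4, with ratios to Day 0 of 0.362, 0.257 and 0.424, and the lowest value was at Day 3. The intervals of Day 0 overlapped those of each later day, and the Day 0 library had the highest value of the 7. The ratio of Day 4 to the untreated mutant line was 0.650, which is not a call, and the ratio with Dox in the mutant line was 0.703. The call thus rests on Day 0 as the reference.

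FGF17 encodes a secreted ligand of the same subfamily as FGF8. It lies on chromosome 8 (chr8:21899909-21906320). From Day 0 to Day 4 its levels were, in order, 0.373 (0 to 1.49), 0.498, 2.87 (1.23 to 4.52), 4.04 (2.31 to 5.77) and 4.34 FPKM (1.90 to 6.79). It was listed at 0 in the untreated mutant line and at 0.207 FPKM (0 to 0.829) in the Dox-treated mutant line. The values at Days 2, 3 and 4 were all above those of the other 4 libraries. When the values were read as the smallest whole reads that fit them, they came to 1, 2, 14, 21 and 16 reads at Days 0 to 4. The mutant line without and with Dox came to 0 and 1 read. FGF17 was called upregulated at Day 3 and at Day 4, where it passed the cutoff of 4 FPKM by little. At Day 4 the level per mapped read was 11.7 times that at Day 0, with a 95% interval from read counts of 1.82 to 490 (exact binomial), and 21.0 times that of the Dox-treated mutant line, with an interval of 3.27 to 883. The untreated mutant line had 0 reads, and the lower limit of the same interval against it was 5.80. Taking 3 reads as the upper limit that 0 reads allow in that library, the ratio was 8.03. These intervals rest on those read numbers and cover counting error only. The log2 fold change at Day 4 against Day 0 was 1.96.

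FGF4 encodes a secreted ligand of the inner cell mass and the primitive streak. It lies on chromosome 11 (chr11:69587797-69590171) and was near the limit of detection in all 7 libraries. The levels from Day 0 to Day 4 were, in order, 1.66, 1.47, 0.915, 0 and 0.806 FPKM, and those of the mutant line were 1.07 FPKM without Dox and 0 FPKM with it. Read in the same way as for FGF17, these values came to 3, 4, 3, 0 and 2 reads in the JMJD3c-hESCs and to 4 and 0 reads in the mutant line. The ratio at Day 4 to Day 0 per mapped read was 0.487 with a counting interval of 0.0407 to 4.25, so no change of FGF4 was detectable at this depth. The 0 reads in the Dox-treated mutant line allow up to 0.920 FPKM, beside 1.07 FPKM without Dox. Cufflinks gave an interval from 0 to 0 for libraries at 0 reads, so its intervals are not used for FGF4 in the mutant line.

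FGF13 lies on the X chromosome (chrX:137713735-138304939). Over the 5 days its levels were, in order, 9.70 (5.25 to 18.1), 17.7 (12.0 to 23.5), 23.2 (15.8 to 30.4), 23.4 (17.7 to 29.1) and 25.5 FPKM (19.6 to 31.2). The untreated mutant line had 16.1 FPKM (9.81 to 22.4) and the Dox-treated one 14.8 FPKM (8.50 to 21.5). FGF13 was called upregulated at Days 2, 3 and 4, with ratios to Day 0 of 2.40, 2.41 and 2.62, and was higher at each later day. The intervals were apart from Day 0 only at Day 4. The ratio of the untreated mutant line to Day 0 was itself 1.66, and the ratio of Day 4 to the untreated mutant line was 1.58, which is not a call and has overlapping intervals. With Dox in the mutant line the ratio was 0.923. The upregulation of FGF13 thus held against Day 0 and not against the mutant line.

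FGF2, FGF13 and FGFR2 were members whose intervals at Day 0 and Day 4 did not overlap, and the DNA just before their transcription starts is shown for these 3. The table of RefSeq promoter sequences (GRCh38.p14, a different build from the hg19 of the values) held windows for FGF2, FGF13, FGFR2, FGFR3 and FGFR4, 11 windows in all. FGF4, FGF8, FGF17 and FGFR1 had no entry. Each sequence below is the 250 bases before a start, 5′ to 3′ on the strand of the gene, with CpG dinucleotides in capitals. The FGF2 window is chr4:122826581-122826830 (plus strand), the FGF13 windows are chrX:139205024-139205273 and chrX:138739354-138739603 (both minus strand), and the FGFR2 window is chr10:121598445-121598694 (minus strand), the most CpG-rich of its 5.
FGF2: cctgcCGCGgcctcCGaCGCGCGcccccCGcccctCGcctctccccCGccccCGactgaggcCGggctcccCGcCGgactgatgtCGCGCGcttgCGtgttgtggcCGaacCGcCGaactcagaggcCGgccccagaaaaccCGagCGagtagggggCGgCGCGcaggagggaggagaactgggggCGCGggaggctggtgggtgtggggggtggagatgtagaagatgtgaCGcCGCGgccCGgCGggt
FGF13, upstream start: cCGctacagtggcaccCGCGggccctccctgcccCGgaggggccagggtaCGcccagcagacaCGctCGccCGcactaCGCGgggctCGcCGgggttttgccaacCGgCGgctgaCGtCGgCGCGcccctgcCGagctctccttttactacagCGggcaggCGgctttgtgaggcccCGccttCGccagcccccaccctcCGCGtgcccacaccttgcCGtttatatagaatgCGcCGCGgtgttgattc
FGF13, downstream start: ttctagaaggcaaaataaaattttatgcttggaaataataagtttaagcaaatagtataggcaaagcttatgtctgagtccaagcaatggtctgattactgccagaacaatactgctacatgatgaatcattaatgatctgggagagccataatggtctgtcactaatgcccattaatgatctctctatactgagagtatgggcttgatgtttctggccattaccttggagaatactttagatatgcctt
FGFR2: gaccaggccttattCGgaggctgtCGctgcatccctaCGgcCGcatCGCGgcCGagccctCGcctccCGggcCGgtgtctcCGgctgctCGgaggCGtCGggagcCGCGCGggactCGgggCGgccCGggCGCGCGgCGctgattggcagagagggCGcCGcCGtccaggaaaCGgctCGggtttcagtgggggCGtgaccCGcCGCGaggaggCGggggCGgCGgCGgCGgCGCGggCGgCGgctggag
The FGF2 window holds 33 CpG, more than 91.9% of the 35116 windows of the table, whose median is 11. The FGFR2 window holds 42 CpG, more than 98.6% of the windows. The 2 starts of FGF13 differ, with 29 CpG at the upstream start and none at the downstream start. The values here are summed over the transcripts of a gene and do not say which start was used. Both strands were searched for the letters of 3 general promoter motifs. The GC box GGGCGG, present in 42.6% of all windows, occurs 3 times in the FGF2 window and 3 times in the FGFR2 window. The letters CCAAT, present in 32.0% of windows, occur 1 time in the FGFR2 window, and TATAAA, present in 10.7%, occurs 1 time in the upstream FGF13 window. The letters CTTTGA, the core that TCF/LEF factors recognize, are present in 11.2% of windows and in none of the 11 member windows. These are matches of letters and say nothing about binding.

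The receptor genes encode the 4 FGF receptor tyrosine kinases. None of the 4 was called in any of the comparisons of Dox-treated with untreated cells, but FGFR2 was close to the threshold. FGFR1 is the main receptor for FGF2 in human pluripotent cells. It lies on chromosome 8 (chr8:38268656-38326352). The levels from Day 0 to Day 4 were, in order, 105 (91.6 to 119), 93.5, 107, 99.3 and 107 FPKM (94.1 to 119). The mutant line had 86.8 FPKM without Dox (79.3 to 94.4) and 75.6 FPKM with it (66.7 to 84.5). The ratio at Day 4 to Day 0 was 1.02, and the intervals of these libraries overlapped almost fully. All 5 libraries of the JMJD3c-hESCs were above both libraries of the mutant line, and at Day 4 of Dox the ratio between the lines was 1.41 with intervals apart.

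FGFR2, whose splice forms bind different sets of ligands, lies on chromosome 10 (chr10:123237848-123357972). From Day 0 to Day 4 its levels were, in order, 31.8 (26.0 to 38.2), 25.1, 23.4, 21.0 (17.6 to 24.4) and 16.2 FPKM (12.6 to 20.0). The untreated mutant line had 19.8 FPKM (16.7 to 23.2) and the Dox-treated one 21.0 FPKM (17.5 to 24.7). FGFR2 was lower at each later day, and the ratio of 0.510 at Day 4 stood just outside the threshold of 0.5, with intervals apart (log2 fold change -0.93). The untreated lines also differed, with a ratio of 0.623 for the mutant line to Day 0 and intervals apart. The ratio of Day 4 to the untreated mutant line was 0.819 with overlapping intervals, and with Dox in the mutant line the ratio was 1.06. The size of the difference thus depended on which untreated line was the reference.

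FGFR3, a receptor best known from the growth plate of bone, lies on chromosome 4 (chr4:1795034-1810599). Over the 5 days its levels were, in order, 7.58 (3.91 to 12.4), 11.5, 10.2, 10.5 and 8.76 FPKM (5.77 to 16.5), and the mutant line had 4.92 FPKM without Dox and 5.48 FPKM with it. All intervals of FGFR3 overlapped one another between Day 4 and the untreated libraries. FGFR4, the receptor that pairs with KLB for the endocrine ligand FGF19, lies on chromosome 5 (chr5:176513887-176525145). The levels of FGFR4 over the 5 days were, in order, 14.4 (9.79 to 21.5), 12.6, 11.2, 9.88 and 8.15 FPKM (5.07 to 13.02), and the mutant line had 10.5 FPKM without Dox and 10.4 FPKM with it. FGFR4 was lower at each later day, as FGF2 and FGFR2 were, but its intervals at Day 0 and Day 4 overlapped. The ratio at Day 4 was 0.567 against Day 0 and 0.773 against the untreated mutant line, and in the mutant line it was 0.987 with Dox.

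The make-up of the receptor pool can be given as a share of the summed FPKM of the 4 receptor genes. The sum was 159 FPKM at Day 0 and 140 FPKM at Day 4, and FGFR1 made up 66.2%, 65.5%, 70.4%, 70.6% and 76.3% of it at Days 0 to 4. The share of FGFR2 was 20.0% at Day 0 and 11.6% at Day 4. The share of FGFR1 in the mutant line was 71.1% without Dox and 67.2% with Dox. The larger share of FGFR1 in the JMJD3c-hESCs went with lower values of FGFR2 and FGFR4 and not with a higher value of FGFR1. Shares of 1 library each have no replicate check.

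**Figure D2:**
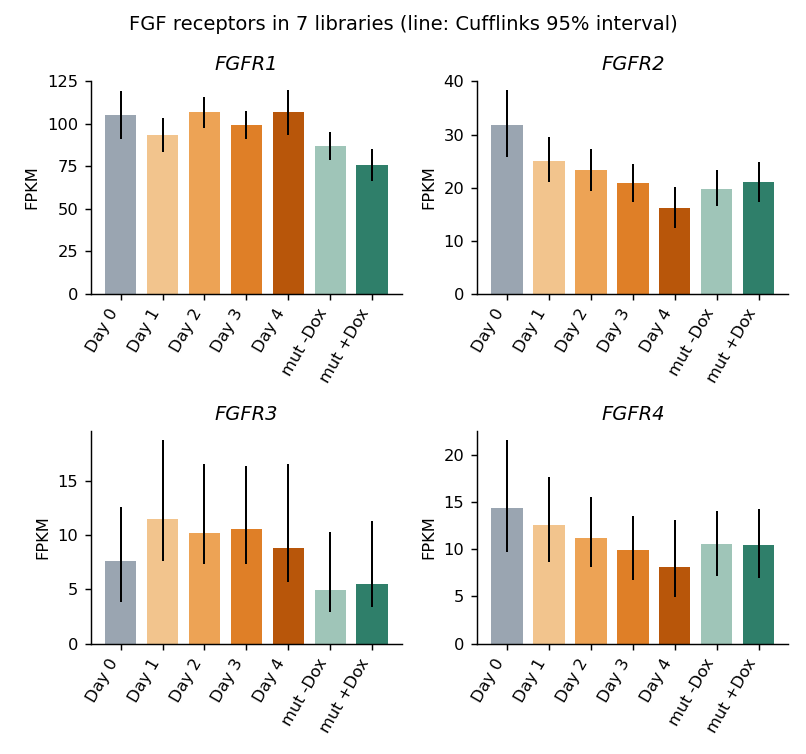
FPKM of the 4 FGF receptor genes (y axis, a separate linear scale for each gene) in the 7 libraries (x axis), drawn as for the ligands with bars for the value and black lines for the Cufflinks 95% interval. FGFR1 lay between 75.6 and 107 FPKM in all libraries, while FGFR2 and FGFR4 were lower at each later day of Dox, from 31.8 to 16.2 FPKM and from 14.4 to 8.15 FPKM.

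Along the time course, no member was called at Day 1, where the background was 3.48% upregulated and 3.27% downregulated. At Day 2, FGF13 was upregulated and FGF8 downregulated, beside backgrounds of 3.90% and 4.24%. At Day 3, FGF13 and FGF17 were upregulated and FGF8 downregulated, beside backgrounds of 4.73% and 4.48%. The median log2 fold change of the 9 members was -0.13, -0.33, -0.50 and -0.56 at Days 1 to 4, while that of all genes in the base stayed between -0.06 and -0.01. The 4 comparisons share the Day 0 library, so they are not independent. FGF2, FGFR2 and FGFR4 were lower at all 4 steps from 1 day to the next and FGF13 and FGF17 were higher at all 4 steps, while FGFR1, FGFR3, FGF4 and FGF8 went both ways.

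With Dox in the mutant line, none of the 9 members was called, beside backgrounds of 1.25% upregulated and 1.53% downregulated among 9736 genes. The median log2 fold change of the members was -0.11, and that of all genes was 0.00. The largest ratio past 1 among members above 4 FPKM was 1.11 for FGFR3, and the lowest ratio was 0.703 for FGF8. FGF2 had intervals apart, as described above. The log2 fold change of FGF13 was -0.11 in the mutant line and 1.31 at Day 4 in the JMJD3c-hESCs. The difference between these changes was not tested, since each rests on 1 library per condition.

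Against the untreated mutant line, Day 4 of JMJD3c had 1 upregulated member, FGF17, and none downregulated, beside backgrounds of 7.05% and 3.90%. The median log2 fold change of the members was -0.20. Against the Dox-treated mutant line, FGF17 was again the 1 upregulated member and none was downregulated, beside backgrounds of 6.56% and 3.00%, and the median of the members was 0.49. The Day 4 library is shared by these comparisons. Between the untreated lines no member was called, beside backgrounds of 2.78% upregulated and 7.01% downregulated in the mutant line relative to Day 0, but 7 of the 9 members had lower values in the mutant line, with a median log2 fold change of -0.41 beside -0.05 for all genes. FGF17 was the member whose call at Day 4 was made against all 3 of these references.

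**Figure D3:**
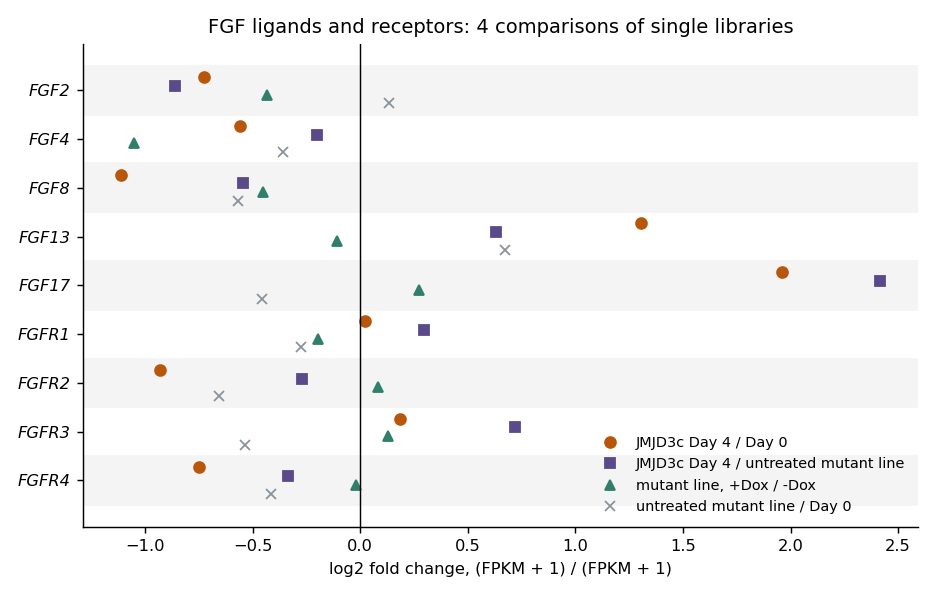
Log2 fold change after a pseudocount of 1 FPKM (x axis) of the 9 members (y axis) in 4 comparisons of 1 library with 1 library, each with its own symbol. FGF17 lay to the right for both Day 4 comparisons, at 1.96 and 2.42, where the latter has a reference of 0 FPKM and depends on the pseudocount, and the untreated lines (crosses) differed by more than 0.5 for FGF8, FGF13, FGFR2 and FGFR3.

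Other genes of the pathway were described from 4 lists that follow the signal from ligand to target genes. Of the other 17 FGF genes, 8 were listed at 0 at both Day 0 and Day 4. Only 3 were above 4 FPKM in either library and so in the base of the same 5.87% and 7.56%. Among these 3, 1 was upregulated and 1 was downregulated, too few to be read as a share. FGF12, which like FGF13 encodes an intracellular FGF homologous factor, was upregulated, with 3.31, 4.05, 6.65, 9.50 and 13.3 FPKM from Day 0 to Day 4, beside 3.38 and 3.79 FPKM in the mutant line without and with Dox. Its intervals at Day 0 (0.337 to 10.2) and Day 4 (6.69 to 21.1) overlapped. FGF11, another gene of that group, was downregulated, with 15.1, 13.4, 3.41, 4.31 and 1.65 FPKM over the same days, beside 4.90 and 5.17 FPKM in the mutant line. The intervals of FGF11 at Day 0 and Day 4 were apart. The highest of this list by mean level was FGF19, with 11.8 FPKM at Day 0 and 6.40 FPKM at Day 4, beside 11.7 and 9.59 FPKM in the mutant line, which is not a call.

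Of 26 genes for co-receptors and for the synthesis and editing of heparan sulfate, 22 were in the base at Day 4 against Day 0. Among these 22, 5 were upregulated and 1 was downregulated, beside 5.87% and 7.56% of all genes in the base. The median log2 fold change of the list was 0.06. The highest of the list by mean level was GPC4, which encodes a glypican that carries heparan sulfate chains at the cell surface. The levels of GPC4 from Day 0 to Day 4 were 42.7, 99.0, 111, 139 and 171 FPKM, beside 50.4 and 80.6 FPKM in the mutant line without and with Dox. FLRT2 and FLRT3, which encode transmembrane proteins that bind FGF receptors, went from 0.366 and 0 FPKM before Dox to 4.94 and 5.79 FPKM on Day 4, and stayed between 0.322 and 0.580 FPKM in the mutant line. SULF1 and SULF2 encode sulfatases that remove 6-O-sulfate groups from heparan sulfate. SULF2 had 8.16 FPKM before Dox (3.66 to 12.7) and 23.8 FPKM on Day 4 (18.4 to 29.1), beside 12.6 and 13.9 FPKM in the mutant line. SULF1 was measured at 1.84 FPKM at Day 0 and 8.02 FPKM at Day 4 with overlapping intervals. NDST2, a sulfotransferase gene, was downregulated from 9.18 to 4.02 FPKM, but its Day 0 interval of 0.315 to 18.3 FPKM covered all of its other values. With Dox in the mutant line, 17 genes of the list were in the base and 1, GPC1, was upregulated, from 7.85 to 16.0 FPKM. The share of all genes upregulated there was 1.25%. GPC1 had 17.3 FPKM at Day 0 in the JMJD3c-hESCs. Against the untreated mutant line, 22 genes of the list were in the base. At Day 4, 6 of them were upregulated and none downregulated, beside 7.05% and 3.90% of all genes. The 6 were GPC4, FLRT2, FLRT3, SULF1, EXT1 and FGFRL1, and SULF2 had a ratio of 1.89.

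Of 22 genes for adaptors and kinases between receptor and ERK, 21 were in the base at Day 4 against Day 0. Among these 21, 1 was upregulated and none was downregulated, again beside 5.87% and 7.56%. The median log2 fold change of the list was -0.04. The upregulated gene was FRS2, the docking protein of the FGF receptors, with 3.35 FPKM at Day 0 and 6.95 FPKM at Day 4. Its intervals overlapped, and it was measured at 7.05 FPKM in the untreated mutant line. The highest of the list by mean level, the adaptor gene SHC1, was measured at 68.1 FPKM at Day 0 and 121 FPKM at Day 4 with intervals apart and a ratio of 1.77. PIK3CA was the 1 gene called with Dox in the mutant line, upregulated from 1.93 to 4.46 FPKM, beside 1.25% of all genes.

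Of 17 ERK feedback and target genes, 5 were upregulated at Day 4 against Day 0 and none was downregulated, beside 5.87% and 7.56% of all genes in the base, and the median log2 fold change was 0.56. By value, 13 were higher and 4 were lower, namely SPRY1, SPRED2, ETV1 and ETV4. DUSP6, which was not called, had 45.2 FPKM at Day 0 and 87.35 FPKM at Day 4, beside 89.1 FPKM in the untreated mutant line. EGR1 and FOS encode immediate early transcription factors. EGR1 levels from Day 0 to Day 4 were 2.11 (0.895 to 3.22), 2.94, 6.03, 9.80 and 13.6 FPKM, beside 1.76 and 3.72 FPKM in the mutant line without and with Dox. FOS was measured at 6.81 FPKM at Day 0 and 13.8 FPKM at Day 4, with overlapping intervals. DUSP4, a phosphatase gene that acts on ERK, had levels of 0.843 (0.105 to 1.68), 1.69, 2.85, 5.77 and 7.52 FPKM over the same days, beside 0.511 and 0.526 FPKM in the mutant line. IL17RD, an inhibitor of FGF signaling, and PHLDA1 had 11.1 and 6.69 FPKM before Dox, and 27.1 and 20.5 FPKM on Day 4. In the mutant line without and with Dox, IL17RD had 18.3 and 17.6 FPKM and PHLDA1 had 7.43 and 8.11 FPKM. The ratio of IL17RD at Day 4 to the untreated mutant line was 1.48, which is not a call. None of the 17 genes was called with Dox in the mutant line, beside 1.25% upregulated and 1.53% downregulated among all genes, and the median was -0.03. Against the untreated mutant line 4 genes were upregulated at Day 4, namely DUSP4, EGR1, FOS and PHLDA1, beside 7.05% of all genes, and the median was 0.32. CCND1, the highest of the list by mean level, had 98.3 and 121 FPKM.

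**Figure D4:**
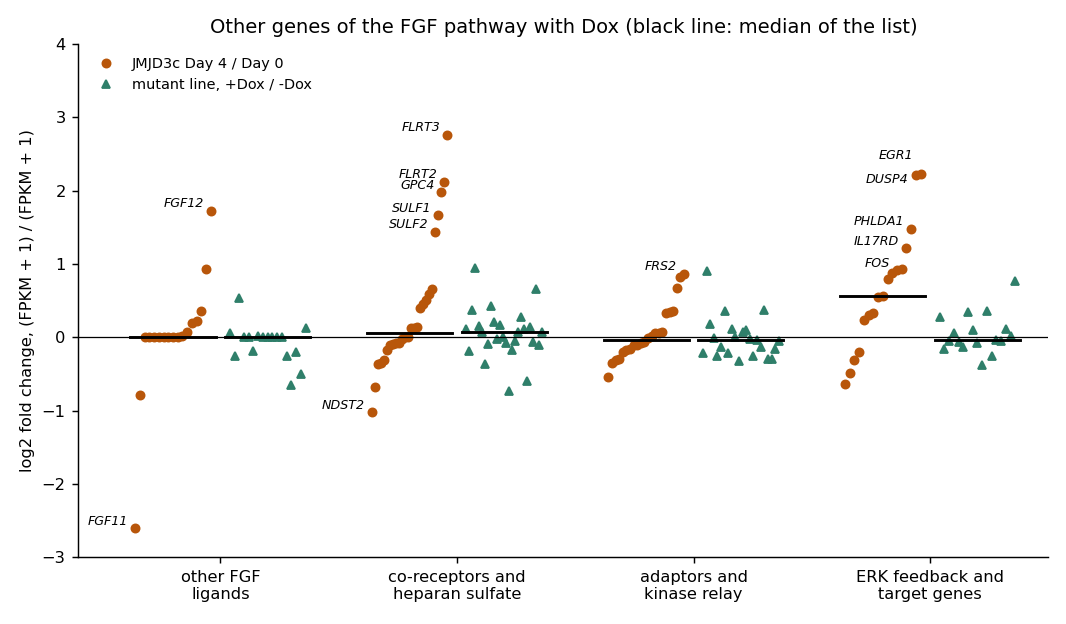
Log2 fold change after a pseudocount of 1 FPKM (y axis) of each gene of 4 FGF pathway lists (x axis), as orange points for Day 4 against Day 0 in the JMJD3c-hESCs and green triangles for Dox in the mutant line. Black lines give the median of a list, gene names mark calls at Day 4, and the list of ERK feedback and target genes had the highest median, at 0.56.

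The genes whose log2 values were most like those of a member over the 7 libraries were found among 3235 genes with more than 4 FPKM in 1 or more libraries and a log2 range of 1 or more. The 7 libraries share a time course, so high values of Pearson's r are common and are given as a description. FGF17 was most like SLIT2 (r = 0.994), LTBR (0.993) and T (0.988), the brachyury gene of the primitive streak, and 127 genes had r above 0.9 with it. The levels of T were 0.804, 2.68, 10.2, 22.4 and 23.6 FPKM from Day 0 to Day 4. FGF13 was most like NME2 (0.987), SHISA2 (0.977) and NECAP2 (0.976). FGF2 was most like SRPX (0.980), CPLX2 (0.972) and SNTB2 (0.970), which like FGF2 were lower in both libraries with 4 days of Dox than in the untreated library of the same line. FGF8 was most like HOMER2 (0.981), MTURN (0.961) and the hexokinase gene HK2 (0.955), and 17 genes had r above 0.9 with it. Among the receptors, FGFR2 was most like ACACB (0.997), DBP (0.990) and MMP11 (0.989), and FGFR4 was most like the telomerase gene TERT (0.992), MYH14 (0.991) and TUBB4A (0.987). FGFR1 was most like C14orf2 (0.968), HIST1H4C (0.965) and GLRX (0.962), and FGFR3 was most like C21orf58 (0.987), COL1A2 (0.986) and MRPL33 (0.985), all of which were lower in the mutant line than in the JMJD3c-hESCs. FGF4 was too low for such a comparison.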

How the data were processed

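Poly(A) RNA libraries of 7 samples, 1 per condition, were prepared with a directional kit and sequenced as single-end 150-base MiSeq reads. Per the submitters' processing notes, the authors used CASAVA 1.4, TopHat2 2.0.13 and Cufflinks 2.1.1 with hg19, and deposited FPKM values per gene with the bounds of their 95% intervals. No member was marked as failed or low in data. Files were joined by gene identifier and position. Ratios, log2 fold changes (pseudocount 1) and calls were computed over the 20187 genes on chromosomes with Python 3.11.15 (pandas 2.3.3, numpy 2.4.6, matplotlib 3.10.9, scipy 1.17.1). Calls and relative depth were run on simulated libraries with counting noise only. The changes set there were in well-expressed genes and larger than those of most members. That run thus does not show how reliable calls of smaller changes or of lower genes are. Depth was estimated from whole-read steps, its absolute scale from 147 genes with 1 exon, with 200 bases subtracted from their length. The commonest low value among those genes, scaled by length, was taken as 1 read, which was not checked against read counts.

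The members and lists were chosen with earlier results of these data known. Named were all 9 members, the 3 genes most like each member above 4 FPKM, KDM6B and, from each pathway list, its calls at Day 4 against Day 0 (up to 6) and its highest gene. A few other genes were named beside these, to show calls in other comparisons or the limits of a list. The alternatives changed the FPKM cutoff, pseudocount, scaling, use of intervals, entries summed per name, treated day and reference. Without replicates, no p-values were calculated. GENCODE release 44 on GRCh37 gave gene structures.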

Additional observations from a re-analysis of the deposited data

Results flagged for a closer look

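The log2 fold changes of FGF13 with Dox had opposite signs in the 2 lines. The log2 fold change was 1.31 at Day 4 in the JMJD3c-hESCs, where it was called upregulated, and -0.11 in the mutant line, where it was not called and the intervals overlapped. Each line had 1 library with and 1 without Dox, and the difference was not tested. The untreated libraries of the lines differed as well, with 9.70 FPKM at Day 0 and 16.1 FPKM in the mutant line.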

How the results depend on the processing

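No paired analysis was possible because each condition had 1 library, and for the same reason no library could be left out. With the untreated mutant line as the reference, the counts at Day 4 were 1 member upregulated, FGF17, in place of 2 and 0 downregulated in place of 1. Requiring intervals apart also gave 0 downregulated members at Day 4 in place of 1. With a cutoff of 1 FPKM or with no cutoff, 2 members were downregulated at Day 4 in place of 1 and 1 member was downregulated by Dox in the mutant line in place of 0. The added member was FGF4, which rests on 4 reads or fewer per library. With no cutoff, 1 member was upregulated by Dox in the mutant line in place of 0 and 2 were upregulated at Day 4 against the Dox-treated mutant line in place of 1, through ratios to a library at 0. Scaling the libraries left each of these counts within 1.5 times its value, and so did Day 3 as the treated sample for the counts against Day 0. Summing entries of a name could change nothing, since each of the 9 names has 1 entry. The median log2 fold change of the 9 members stayed negative under all of these alternatives. It ranged from -0.77 to -0.20 at Day 4 against Day 0 and from -0.12 to -0.06 in the mutant line. The Dox-treated mutant line was not among the references tried for it, and against that line the median at Day 4 was 0.49. Between the untreated lines alone it was -0.41. For single members, 4 of 72 alternatives left the range that the Cufflinks intervals allow at a pseudocount of 1. FGFR2 was among them, with -0.27 against the untreated mutant line in place of -0.93. The others used a pseudocount of 0.1, to which that range does not apply. FGF17 at Day 4, for example, had a log2 fold change of 3.23 with that pseudocount. Scaling moved the median of all genes by at most 0.06 on the log2 scale. The Day 0 library was the shallowest, and values of FGF4 and FGF17 there rest on 3 reads and 1 read.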
